A study of Mus musculus with 4 samples.

Results

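The genes described here are 10 antigen presentation genes out of 23337 gene rows in a count table of mouse cardiac cushions, the swellings of the embryonic heart that form valves and septa. They fall into 5 genes of major histocompatibility complex (MHC) class II, Cd74, H2-Aa, H2-Ab1, H2-Eb1 and Ciita, and 5 genes of class I, H2-K1, H2-D1, B2m, Tap1 and Tap2. The genes were taken by symbol, and the list was selected on earlier results of the same mutant against wildtype comparison, among them the very low wildtype reads of some class II genes. Differences between the genotypes are therefore given for these genes as a description, and nothing is read from how many of them passed a test. Of the 10, 9 had enough reads to be tested, 4 of class II and 5 of class I; Ciita did not.

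Total RNA was sequenced from 2 libraries of Nfatc1Cre;Brg1F/F mutant cushions and 2 libraries of Wildtype littermate cushions, all C57BL/6 at embryonic day 14.5. In the mutant, floxed Brg1 (gene symbol Smarca4), the motor subunit of SWI/SNF (BAF) chromatin remodellers, is deleted by a Cre driven from Nfatc1, a gene of the endocardium. Cells outside that lineage keep the gene, and the cushions of both genotypes were dissected by the GFP of a Cre reporter. Whether a library held 1 embryo or several is not given in the sources used here, so the spread between libraries may be partly technical. Libraries are called mutant or wildtype replicate 1 and 2, and the libraries that share a number are read as a pair.

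MHC class II molecules are pairs of an alpha and a beta chain that show peptides from engulfed material to helper T cells. They are made mainly by dendritic cells, B cells and macrophages, assemble on the invariant chain (Cd74), and are switched on through Ciita, a coactivator that binds no DNA itself but acts through factors bound at the X and Y boxes of class II promoters. Class I molecules show peptides from inside the cell to cytotoxic T cells and occur on most nucleated cells. Each is a heavy chain (H2-K1 or H2-D1) with the light chain beta-2 microglobulin (B2m), loaded with peptides that the transporter Tap1 and Tap2 moves into the endoplasmic reticulum. Interferon gamma is known to raise both classes.

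Reads in genes numbered 22426537 and 14104458 in mutant replicates 1 and 2, and 19218820 and 15790338 in wildtype replicates 1 and 2. Levels are given as CPM, the read count scaled to the size of the library, and 3 reads are worth between 0.134 and 0.213 CPM, depending on the library. CPM values use library sizes scaled by the trimmed mean of M values (TMM), and intervals given with them cover counting error only. Smarca4 measured 282 and 239 CPM in mutant replicates 1 and 2, against 251 and 231 CPM in wildtype replicates 1 and 2, so its counts over the whole gene show no fall in the mutant libraries. Xist, the transcript of the inactive X chromosome, was at 13.35 CPM in mutant replicate 2 and at 2659 CPM in mutant replicate 1, against 2047 and 2317 CPM in the wildtype libraries. With 8400 reads over 4 Y-linked genes, mutant replicate 2 was the male library, against 0 reads in mutant replicate 1 and 0 and 72 reads in wildtype replicates 1 and 2.

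Class II transcripts were scarce in all 4 libraries, and 4 of the 5 class II genes were higher in both mutant libraries than in both wildtype libraries. Among all 14316 tested genes, 17.0% had both mutant libraries above both wildtype libraries in CPM. Together Cd74, H2-Aa, H2-Ab1 and H2-Eb1 had 163 and 131 reads in mutant replicates 1 and 2, and 46 and 45 reads in wildtype replicates 1 and 2. That is a summed level of 7.17 and 9.25 CPM in the mutants, and 2.45 and 2.84 CPM in wildtype.

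Cd74, the invariant chain, had the lowest read count of any tested class II gene in a single library, in wildtype replicate 2. It had 60 and 37 reads in mutant replicates 1 and 2, or 2.64 and 2.61 CPM, and 9 reads and 1 read in wildtype replicates 1 and 2, or 0.479 and 0.063 CPM. The mutant libraries lay close together, while the wildtype libraries differed from each other and replicate 2 was under the level of 3 reads. The mean was 2.63 ± 0.0196 CPM in the mutants and 0.271 ± 0.294 CPM in wildtype (SD, n = 2 each), and the fitted log2 fold change was 3.17 ± 0.59 (SE). Within pair 1 the ratio was 5.51 (95% counting interval 2.72 to 12.6), and within pair 2, where it rests on 1 wildtype read, 41.4 (6.98 to 1679). The fitted value was 5.23 without wildtype replicate 1 and 2.44 without wildtype replicate 2.

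H2-Aa encodes the alpha chain of the class II molecule I-A. It had 15 and 26 reads in the mutant libraries (0.660 and 1.84 CPM), and 4 and 2 reads in the wildtype libraries (0.213 and 0.126 CPM). The groups did not overlap, but the mutant libraries differed from each other more than the wildtype libraries did. Its log2 fold change was 2.74 ± 0.73 (SE); the ratio was 3.10 (0.987 to 12.8) within pair 1 and 14.6 (3.64 to 127) within pair 2. Without mutant replicate 2 the fitted value was 1.90, and without mutant replicate 1 it was 3.35.

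H2-Ab1, the beta chain of I-A and partner of H2-Aa, was the class II gene with the most wildtype reads. It had 54 and 49 reads in the mutant libraries (2.38 and 3.46 CPM), against 26 and 31 reads in the wildtype libraries (1.38 and 1.96 CPM). Replicate 2 was the higher library in both genotypes, and the ratio was alike in the pairs, 1.72 (1.06 to 2.86) in pair 1 and 1.77 (1.11 to 2.87) in pair 2. The log2 fold change was 0.79 ± 0.36 (SE).

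H2-Eb1 encodes the beta chain of the class II molecule I-E. It had 34 and 19 reads in the mutant libraries (1.496 and 1.34 CPM), against 7 and 11 reads in the wildtype libraries (0.373 and 0.694 CPM). Its log2 fold change was 1.43 ± 0.48 (SE), and the ratio was 4.01 (1.75 to 10.7) in pair 1 and 1.93 (0.874 to 4.50) in pair 2. The alpha chain that pairs with it is a pseudogene in C57BL/6 mice; its row, H2-Ea-ps, had 1 read, in mutant replicate 1, and 0 reads in the other 3 libraries.

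Ciita, the class II coactivator, had 10 and 7 reads in the mutant libraries (0.440 and 0.494 CPM), and 2 and 8 reads in the wildtype libraries (0.106 and 0.505 CPM). The groups overlapped, since wildtype replicate 2 was the highest of the 4 libraries. It did not pass the filter on low counts in any library, and a difference between the genotypes was not detectable at this depth.

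**Figure D1:**
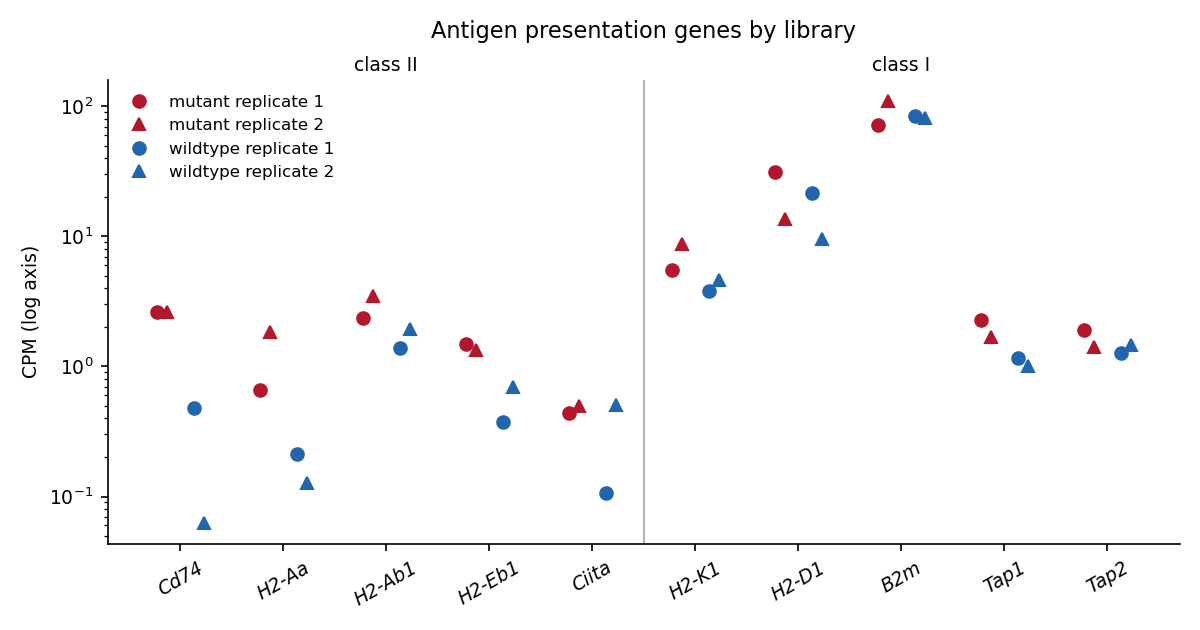
CPM of the 10 antigen presentation genes in each library on a log axis, mutant (red) left of wildtype (blue), with circles for replicate 1 and triangles for replicate 2. Cd74 has both mutant libraries near 2.6 CPM and wildtype libraries at 0.479 and 0.063 CPM, while B2m lies between 71.9 and 110.1 CPM in all 4 libraries.

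The promoters of H2-Aa and H2-Eb1 are shown because class II transcription is known to run through the X and Y boxes. The sequences are the 120 bases before the transcript start of each gene, from RefSeq on GRCm38.p6, read 5′ to 3′ along the gene, at chr17:34287824-34287943 on the minus strand for H2-Aa and chr17:34305747-34305866 on the plus strand for H2-Eb1. Capitals mark every match, on either strand, to the Y box core ATTGG, its longer form CTGATTGG, which contains the core, or an X box pattern AGNNACNGA.
H2-Aa: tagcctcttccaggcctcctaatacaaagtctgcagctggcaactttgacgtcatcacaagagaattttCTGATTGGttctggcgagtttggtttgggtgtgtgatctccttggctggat
H2-Eb1: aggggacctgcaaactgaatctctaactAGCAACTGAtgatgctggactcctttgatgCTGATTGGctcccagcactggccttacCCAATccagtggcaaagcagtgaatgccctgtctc
Both hold the longer Y box, from base -51 in H2-Aa and from base -62 in H2-Eb1, counted back from the start. H2-Eb1 also has the X box pattern from base -92, and a Y box core on the opposite strand. Only this exact X box pattern was searched, so the unmarked sequence of H2-Aa may still hold a variant of it. Of 32851 RefSeq promoter windows of 300 bases, 37.4% hold the core, 4.10% the longer Y box and 17.7% the X box pattern, so a match of these letters alone marks no site.

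In class I, H2-K1, H2-D1 and B2m had more reads than any class II gene in every library, whereas Tap1 and Tap2 lay in the range of the class II genes. Of the 5 class I genes 2, H2-K1 and Tap1, had both mutant libraries above both wildtype libraries, as did 17.0% of all tested genes. H2-K1, a classical heavy chain, had 125 and 124 reads in the mutant libraries (5.50 and 8.76 CPM), against 71 and 73 reads in the wildtype libraries (3.78 and 4.61 CPM). Its log2 fold change was 0.75 ± 0.29 (SE), with a ratio of 1.46 (1.08 to 1.98) in pair 1 and 1.90 (1.41 to 2.57) in pair 2.

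H2-D1, the other classical heavy chain, differed more between the pairs than between the genotypes. It had 707 and 193 reads in mutant replicates 1 and 2 (31.1 and 13.6 CPM), and 408 and 152 reads in wildtype replicates 1 and 2 (21.7 and 9.59 CPM). The groups overlapped, since mutant replicate 2 lay under wildtype replicate 1. Within the pairs the mutant was higher by much the same ratio, 1.43 (1.27 to 1.62) in pair 1 and 1.42 (1.14 to 1.77) in pair 2. The log2 fold change was 0.52 ± 0.42 (SE), and 0.51 ± 0.20 in the fit that blocks on pair. Leaving out 1 library unbalances the pairs. The value became -0.21 when mutant replicate 1 was dropped and 0.052 when wildtype replicate 2 was. It became 1.24 when wildtype replicate 1 was dropped and, past the threshold, 0.99 when mutant replicate 2 was.

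B2m, the light chain common to all class I molecules, was the most abundant member. It had 1633 and 1559 reads in the mutant libraries (71.9 and 110.1 CPM), and 1582 and 1287 reads in the wildtype libraries (84.3 and 81.2 CPM). Mutant replicate 1 was the lowest library and mutant replicate 2 the highest, so the pairs went opposite ways, with a ratio of 0.853 (0.796 to 0.915) in pair 1 and 1.36 (1.26 to 1.46) in pair 2. The log2 fold change was 0.13 ± 0.19 (SE), and -0.20 without mutant replicate 2.

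Of the transporter chains, Tap1 had 52 and 24 reads in the mutant libraries (2.29 and 1.69 CPM), against 22 and 16 reads in the wildtype libraries (1.17 and 1.01 CPM). Its groups did not overlap, and the log2 fold change was 0.88 ± 0.39 (SE). Tap2 had 43 and 20 reads in the mutant libraries (1.89 and 1.41 CPM), against 24 and 23 reads in the wildtype libraries (1.28 and 1.45 CPM). Its groups overlapped and the log2 fold change was 0.30 ± 0.38 (SE). Tap1 shares 212 exon bases, 3.87% of its exons, with Psmb9 on the opposite strand, and 14.1% of the exon bases of Tap2 lie under an antisense long noncoding RNA; the strand setting of the counting is not given in the sources used here, so reads of such partners cannot be told apart.

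The promoters of H2-K1, H2-D1 and B2m are shown to set the class I genes beside the class II genes. They are the 130, 180 and 150 bases before the RefSeq starts, on GRCm38.p6, at chr17:34000348-34000477 (minus strand), chr17:35262914-35263093 (plus strand) and chr2:122147537-122147686 (plus strand). Capitals mark the Y box core or its longer form, an NF-kB pattern GGGATTCCC, and an interferon-stimulated response element (ISRE) pattern GAAANNGAA, on either strand.
H2-K1: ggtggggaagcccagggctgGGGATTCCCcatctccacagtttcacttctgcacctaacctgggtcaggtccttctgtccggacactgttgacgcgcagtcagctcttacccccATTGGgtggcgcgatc
H2-D1: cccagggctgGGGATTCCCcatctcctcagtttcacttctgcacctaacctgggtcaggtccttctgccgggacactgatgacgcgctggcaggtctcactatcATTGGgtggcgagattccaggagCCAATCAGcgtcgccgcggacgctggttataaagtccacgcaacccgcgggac
B2m: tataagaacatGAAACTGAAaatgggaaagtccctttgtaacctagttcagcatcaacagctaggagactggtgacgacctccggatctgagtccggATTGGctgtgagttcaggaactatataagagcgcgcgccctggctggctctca
The NF-kB pattern, present in 0.353% of all promoter windows, lay from base -110 in H2-K1 and from base -170 in H2-D1. The longer Y box lay on the opposite strand in H2-D1, from base -53. H2-K1 holds it on the opposite strand too, from base 9 after the start, past the printed stretch. The ISRE pattern, present in 8.56% of windows, lay from base -139 in B2m. Only these exact patterns were searched, so unmarked stretches, those of H2-K1 and H2-D1 among them, may still hold variants of these elements. The printed H2-K1 and H2-D1 promoters share an identical run of 40 bases. The transcripts of these genes are alike too: 9.63% of the 50-base windows of H2-K1 and 12.8% of those of H2-D1 also occur in transcripts of other genes, mostly other class I genes, so the split of reads between them is uncertain. No such window was shared by B2m, Cd74, H2-Ab1 or H2-Eb1, and 0.514% were by H2-Aa.

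Across the table, 9 of 14316 genes passed an adjusted p of 0.05 for genotype by edgeR's quasi-likelihood test, or 0.0629% of those tested. Of the 9 tested antigen presentation genes 0 passed. Before adjustment 5 had a p under 0.05, as did 5.78% of all tested genes, and DESeq2 called 1, Cd74, against 0.442% of the genes it gave an adjusted p. In the fit that blocks on pair, 127 genes, 0.887% of those tested, passed, among them Cd74 and H2-Aa. Both of these passed the low count filter through the mutant libraries alone, and all these counts are descriptions, since the list was made with this comparison in view. The authors' deposited table has a row for 3 of the 10, H2-K1, H2-D1 and B2m, of which 0 are past a false discovery rate of 0.05.

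**Figure D2:**
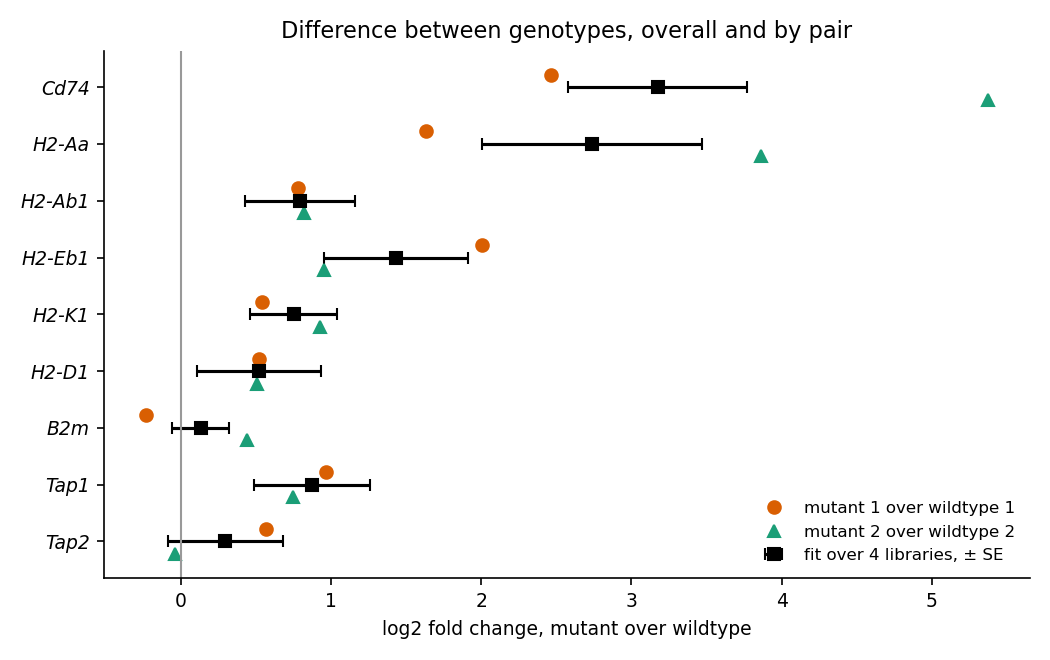
Log2 fold change, mutant over wildtype, of the 9 tested antigen presentation genes: the fit over 4 libraries with its SE (black) and the ratio within pair 1 (orange) and within pair 2 (green). The pairs lie on the same side of 0 for all genes but B2m and Tap2, and Cd74 and H2-Aa have the widest gap between pairs.

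The difference of H2-D1 between the pairs was then tested, a measure the choice of genes did not use; this test was added after the values were seen. With genotype and pair in 1 fit, H2-D1 averaged 11.6 CPM in pair 2 and 26.4 CPM in pair 1, a log2 difference of -1.18 ± 0.20 (SE; edgeR adjusted p = 0.00305), lower in pair 2 in both genotypes. Of the 9 tested antigen presentation genes 1 passed, H2-D1, against 65 of all 14316 genes, or 0.454%. DESeq2 gave -1.18 with an adjusted p of 0.0123. H2-K1 and B2m had log2 differences of 0.49 ± 0.28 and 0.28 ± 0.18 (SE), in the other direction to H2-D1, and did not pass. The row of H2-K2, a class I pseudogene beside H2-K1 singled out after its values were seen, had 7 and 6 reads in the mutant and wildtype libraries of pair 2 and 0 reads in both libraries of pair 1. Pair 2 includes the male library, and its part in the difference was not tested.

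**Figure D3:**
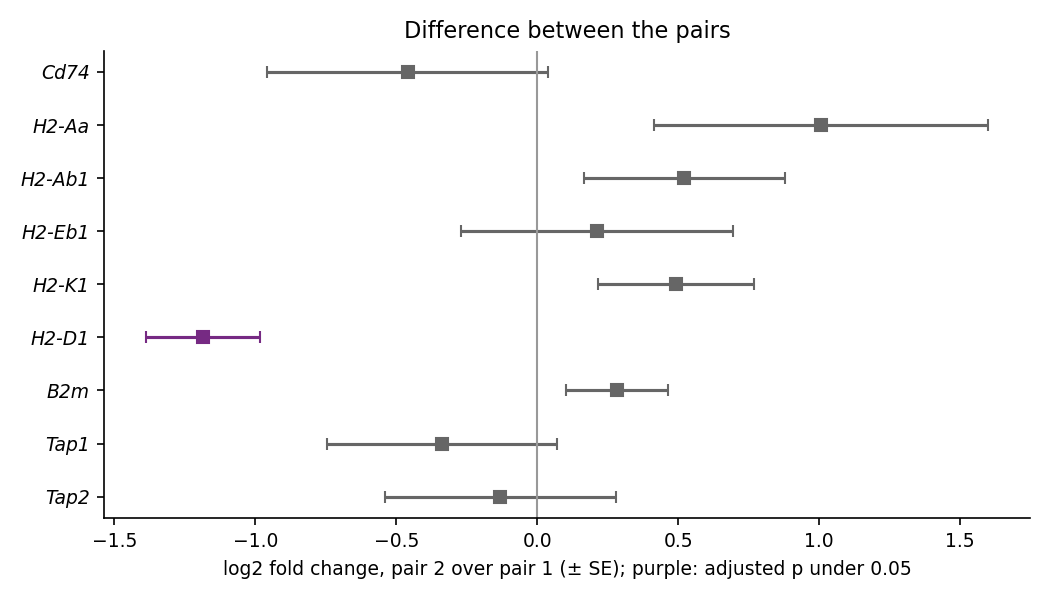
Log2 fold change, pair 2 over pair 1, of the 9 tested antigen presentation genes with its SE, from the fit of genotype and pair together. H2-D1 (purple, adjusted p under 0.05) lies at -1.18, and the other genes (grey) did not pass.

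Of the 10 genes, 7 lie in the MHC on chromosome 17 of mm10 (GENCODE M21): H2-K1 (33996017 to 34000347), Tap1 (34187553 to 34197225), Tap2 (34203527 to 34216321), H2-Ab1 (34257689 to 34269419), H2-Aa (34282744 to 34287823), H2-Eb1 (34305867 to 34316674) and H2-D1 (35262730 to 35267499). Of the 57 genes tested between the outer ends of H2-K1 and H2-D1, 0 passed for genotype by edgeR, against 0.0629% of all tested genes. With the block 2 passed, H2-Aa and the immunoproteasome gene Psmb8, against 0.887% of all tested genes. H2-Aa and Psmb8 passed the low count filter through the mutant libraries alone. H2-D1 alone passed for the difference between pairs, against 0.454% of all tested genes. B2m lies on chromosome 2 (122147686 to 122153083), Ciita on chromosome 16 (10480059 to 10528418) and Cd74 on chromosome 18 (60803848 to 60812652).

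Levels were compared between genes as CPM per kilobase of exon, over all annotated exons of a gene. In the mutant libraries B2m averaged 105.8, H2-D1 8.68, H2-K1 2.43, Cd74 1.57, H2-Ab1 1.14, H2-Eb1 0.730, Tap2 0.437, Tap1 0.364, H2-Aa 0.329 and Ciita 0.0490 CPM per kilobase. In wildtype B2m averaged 96.2, H2-D1 6.07, H2-K1 1.43, H2-Ab1 0.651, Tap2 0.361, H2-Eb1 0.274, Tap1 0.199, Cd74 0.162, H2-Aa 0.0447 and Ciita 0.0321 CPM per kilobase. The order B2m, H2-D1, H2-K1 thus held in both genotypes, without overlap between those genes within a genotype, while Cd74 stood next after H2-K1 in the mutants and below Tap1 in wildtype. In the mutants Tap2, Tap1 and H2-Aa overlapped each other, and in wildtype each neighbouring pair from Tap2 down to Ciita overlapped. B2m was far above the heavy chain genes it pairs with.

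The other genes of the pathways were taken from 3 lists of 67 genes, of which 62 had a row and 48 could be tested. Without adjustment, 2 of the 11 tested class II pathway genes were higher and 0 lower at an edgeR p of 0.05. Of all tested genes 3.88% were higher at that p. After adjustment 1 of the 11 rose and 0 fell, where 0.0629% of all tested genes passed. The median log2 fold change was 0.01, against -0.003 for all tested genes. The one that rose was Ctss, cathepsin S, the protease that trims the invariant chain in antigen presenting cells. It measured 36.3 and 41.3 CPM in the mutant libraries, against 16.8 and 14.0 CPM in the wildtype libraries (log2 fold change 1.33 ± 0.18, edgeR adjusted p = 0.0499). Ctss also passed in the edgeR fit that blocks on pair (adjusted p = 0.00065) and by DESeq2 (adjusted p = 5.93e-07). The call was lost without wildtype replicate 1 (log2 fold change 1.47) and without wildtype replicate 2 (1.20). Ctsl, cathepsin L, the most abundant of the list, had a log2 fold change of 0.01 ± 0.16. The peptide exchange chains were near the counting limit, with 16 and 8 reads of H2-DMa in the mutants and 24 and 7 in wildtype, and H2-Eb2 and H2-Ob had 0 reads.

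Of the 19 tested class I pathway genes 0 rose or fell by edgeR, and DESeq2 called 0. Without adjustment, 5 were higher and 0 lower at a p of 0.05, and 3.88% of all tested genes were higher at that p. The median log2 fold change was -0.01. Psmb8, an immunoproteasome subunit that cuts peptides for class I, had 31 and 27 reads in the mutant libraries and 9 and 3 reads in the wildtype libraries. The log2 fold change of Psmb8 was 2.21 ± 0.54 (SE); its edgeR adjusted p was 0.274 in the fit without pairs and 0.0499 in the blocked fit. Psmb8 and Nlrc5 passed the low count filter through the mutant libraries alone. Nlrc5, the class I counterpart of Ciita, named after its values were seen, had 15 and 13 reads in the mutant libraries and 3 reads and 1 read in the wildtype libraries; its log2 fold change was 2.68 ± 0.70 (SE) and its edgeR adjusted p 0.352. Canx, the chaperone calnexin and the most abundant of the list, measured 1066 and 1042 CPM in the mutants and 1079 and 1045 CPM in wildtype. The list also holds H2-Ke6, which encodes a steroid dehydrogenase and has no part in presentation.

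Of the 18 tested regulators and interferon signalling genes 0 rose or fell by edgeR, DESeq2 called 0, and 0 had a p under 0.05 before adjustment. The median log2 fold change was 0.16, and 13 of the 18 were above 0, against 49.5% of all tested genes. Ifng, interferon gamma itself, had 0 reads in each of the 4 libraries, where a count of 0 allows up to 3 reads. Jak1, a kinase of interferon receptors, had a log2 fold change of 0.18 ± 0.13, and Creb1, a factor of the X box, -0.12 ± 0.13 (SE).

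Markers of leukocytes were compared between the same libraries. The 8 pan-leukocyte genes summed to 123 and 124 CPM in the mutant libraries, against 67.3 and 72.8 CPM in the wildtype libraries. Their median log2 fold change was 0.88. All 8 had both mutant libraries above both wildtype libraries, as did 17.0% of all tested genes. The edgeR threshold for genotype was passed by 0.0629% of all tested genes. By edgeR 1 of the 8 rose, Ptprc, the leukocyte phosphatase CD45, at 29.4 and 26.1 CPM in the mutants against 6.71 and 7.51 CPM in wildtype (log2 fold change 1.97 ± 0.18, adjusted p = 0.0119; 0.0701 without wildtype replicate 2). In bulk tissue, more cells of a type and more RNA per cell cannot be told apart. The part of leukocyte number in the class II values was not tested.

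The marker lists of antigen presenting cells gave different pictures. Of 14 macrophage genes with a row, 13 were tested and 0 passed by edgeR. DESeq2 called 2, against 0.442% of the genes it gave an adjusted p. Before adjustment 10 were higher at an edgeR p under 0.05, against the 3.88% of all tested genes. These counts are descriptions, since the lists were chosen with earlier results of these data known. With the block 4 rose, where 0.887% of all tested genes passed in either direction. They were Csf1r, the macrophage growth factor receptor, Emr1, a surface receptor of macrophages, Itgam, integrin alpha M, and C1qa, a complement chain. Their log2 fold changes were 0.98, 0.89, 1.65 and 1.35. In the unblocked fit the median log2 fold change of the list was 0.84, with 12 tested genes above 0 and 1 below. Mrc1, the most abundant of the list, was at 0.22, Lyz2 at 0.15 and Mertk at -0.01. The macrophage list summed to 219 and 256 CPM in the mutants, against 171 and 168 CPM in wildtype. The monocyte list summed to 17.0 and 11.8 CPM in the mutants, against 1.81 and 1.70 CPM in wildtype, and Ccr2, the monocyte chemokine receptor, rose (log2 fold change 3.55 ± 0.31, edgeR adjusted p = 0.0119). In that list Plac8 did not pass in the unblocked edgeR fit (adjusted p = 0.198) but passed with the block and by DESeq2. It measured 5.63 and 1.27 CPM in the mutants against 0.373 and 0.316 CPM in wildtype. The marker Ly6c2 had 0 reads. Reads aligned to several places were left out, so 0 reads of a gene with near copies need not mean absence.

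The dendritic cell list did not separate the groups, at 20.4 and 18.1 CPM in the mutants and 20.2 and 17.7 CPM in wildtype; most of it was Zbtb46, with 362 and 187 reads in the mutants and 328 and 245 in wildtype. Itgax, the integrin CD11c of dendritic cells and some macrophages, had 52 and 20 reads in the mutants and 3 reads and 1 read in wildtype (edgeR adjusted p = 0.0850, or 0.00111 with the block). Of the other dendritic markers Clec9a, a receptor for dead cells, had 28 and 31 reads in the mutants and 24 and 13 in wildtype, and the remaining 7 had 0 to 12 reads in each library, with Flt3 and Cd209a at 0 to 3. Among B cell markers Ms4a1 had 2 reads in mutant replicate 1 and 0 elsewhere, Cd79b had 13 and 6 reads in the mutants and 4 and 2 in wildtype, and Ebf1 made up most of the list's reads. Among T and NK cell markers, Cd3d and Ncr1 had 0 reads and Cd3e 1 read in all. The neutrophil list summed to 1.496 and 1.41 CPM in the mutants, against 0.319 and 0.316 CPM in wildtype; its member Mpo, myeloperoxidase, had 21 and 10 reads in the mutants and 2 and 0 in wildtype and passed with the block. Plac8, Itgax and Mpo passed the low count filter through the mutant libraries alone.

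Markers of the dissected tissue were abundant in all libraries. Endocardial and endothelial genes summed to 1109 and 1120 CPM in the mutants, against 1168 and 1194 CPM in wildtype, and cushion mesenchyme genes to 4063 and 3640 CPM in the mutants, against 4479 and 3984 CPM in wildtype. Cardiomyocyte genes took more, 51750 and 54680 CPM in the mutants and 64590 and 58280 CPM in wildtype. Mast cell genes summed to 62.0 and 56.9 CPM in the mutants, against 44.4 and 40.2 CPM in wildtype, and erythroid genes to 662 and 575 CPM in the mutants, against 497 and 521 CPM in wildtype. Most of the mast cell sum was Kit, at 58.23 and 51.98 CPM in the mutants and 42.44 and 39.25 CPM in wildtype. Most of the erythroid sum was Hbb-y, at 624.1 and 544.5 CPM in the mutants and 475.0 and 490.2 CPM in wildtype. Of other tissues, hepatocyte genes summed to 9.07 and 17.7 CPM in the mutants, against 5.22 and 4.86 CPM in wildtype, and thymic epithelium genes to 6.16 and 3.74 CPM in the mutants, against 4.95 and 4.17 CPM in wildtype. The part of these tissues in the values of the antigen presentation genes was not tested.

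**Figure D4:**
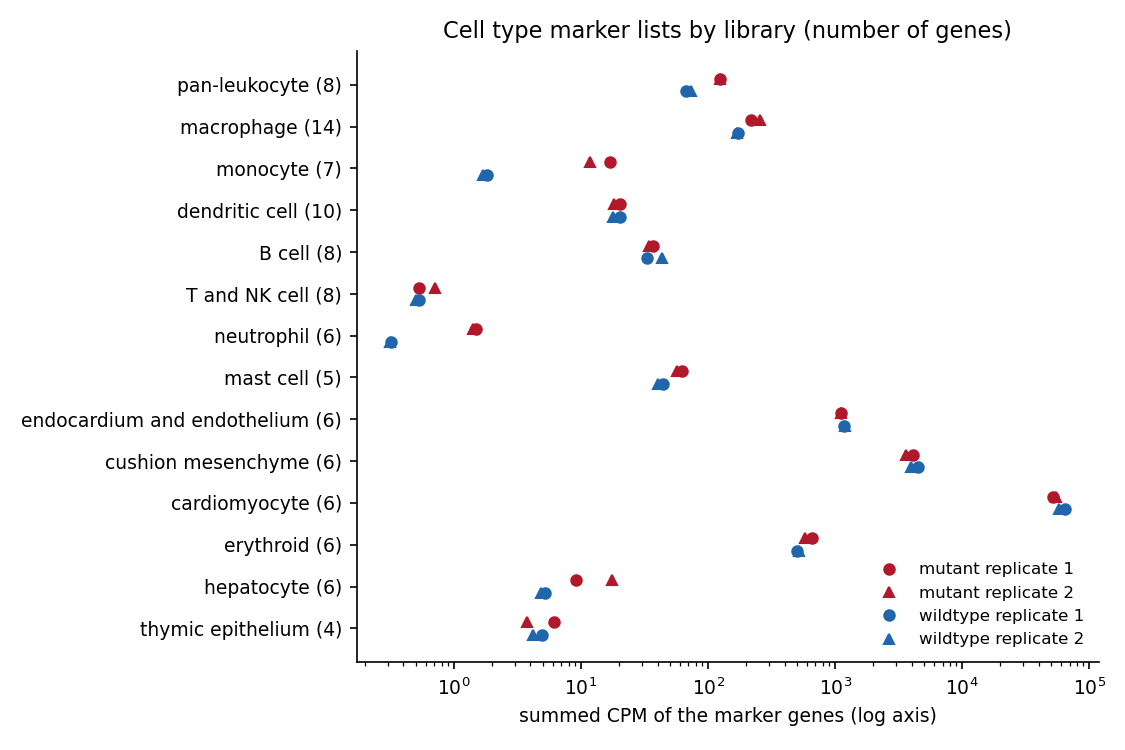
Summed CPM of each cell type marker list in each library on a log axis, mutant (red) above wildtype (blue), with the number of genes that had a row. The pan-leukocyte, macrophage, monocyte, neutrophil, mast cell, erythroid and hepatocyte sums are higher in both mutant libraries, and the dendritic cell, B cell, T and NK cell and thymic epithelium sums overlap. Most of the mast cell sum is Kit, and most of the erythroid sum is Hbb-y.

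Set against leukocyte reads, the class II genes divided. Per 100 reads of the 8 pan-leukocyte genes, Cd74 had 2.14 and 2.11 reads in the mutants, against 0.712 and 0.0867 in wildtype. H2-Aa had 0.535 and 1.48 in the mutants, against 0.317 and 0.173 in wildtype. H2-Eb1 had 1.21 and 1.08 in the mutants, against 0.554 and 0.953 in wildtype. These 3 genes stayed higher in both mutant libraries, as did 1.25% of all tested genes on this scale. For H2-Eb1 the gap was small, 1.08 against 0.953, and rests on 19 and 11 reads. H2-Ab1 overlapped, with 1.93 and 2.79 in the mutants and 2.06 and 2.69 in wildtype. Much of the scale is Lcp1, with 1266 of 2804 and 849 of 1755 reads in the mutants. In wildtype Lcp1 gave 759 of 1264 and 701 of 1154 reads. Its log2 fold change was 0.45, against 1.97 for Ptprc of the same list, with H2-Eb1 between them at 1.43. The separation of H2-Eb1 thus depends on the markers summed, and so does that of H2-Aa. In mutant replicate 1 H2-Aa had 15 reads and Ptprc 668, and in wildtype replicate 1 they had 4 and 126. Per read of Ptprc, H2-Aa was thus lower in mutant replicate 1 than in wildtype replicate 1, and its groups overlapped.

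Of the class I genes 0 were higher in both mutant libraries on that scale, where 1.25% of all tested genes were. B2m had 58.2 and 88.8 reads per 100 leukocyte reads in the mutants, against 125 and 112 in wildtype, and Tap2 had 1.53 and 1.14 in the mutants, against 1.90 and 1.99 in wildtype, so both were lower. The pan-leukocyte sum was itself 123 and 124 CPM in the mutants, against 67.3 and 72.8 CPM in wildtype. A gene with equal CPM in both genotypes is therefore lower in the mutants on this scale. The share of all tested genes that were lower was not counted. H2-K1, with 4.46 and 7.07 in the mutants and 5.62 and 6.33 in wildtype, overlapped, as did Tap1, H2-D1 and the class II coactivator Ciita. The wildtype values of Cd74 and H2-Aa rest on 1 to 9 reads each, and those of H2-Eb1 on 7 and 11 reads.

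**Figure D5:**
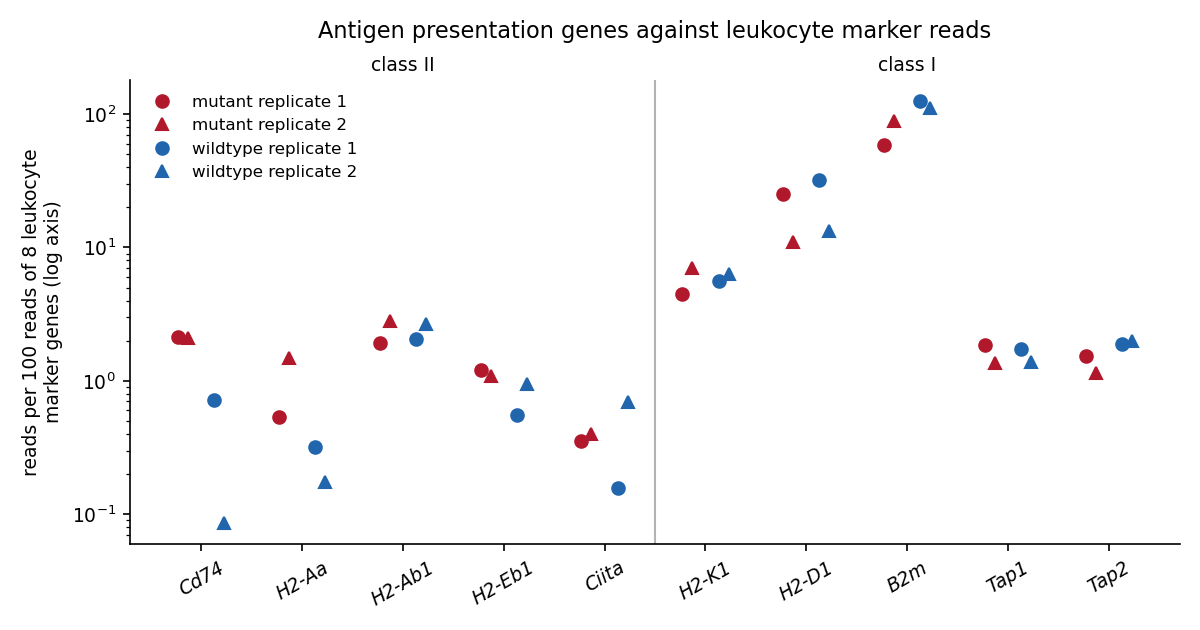
Reads of each antigen presentation gene per 100 reads of 8 pan-leukocyte genes, by library, on a log axis, mutant (red) left of wildtype (blue). Cd74, H2-Aa and H2-Eb1 lie higher in both mutant libraries, H2-Ab1 overlaps, and B2m and Tap2 lie lower.

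The genes whose pattern over the 4 libraries was most like that of Cd74, by the root mean square distance of log2 CPM centred on its mean, were Hemgn (distance 0.352), Mpo (0.403), Itgax (0.457), Spic (0.509) and Elfn1 (0.517). Hemgn, a nuclear protein of blood progenitors, had 131 and 75 reads in the mutants and 11 and 4 in wildtype, and Spic, a transcription factor of iron-recycling macrophages, 14 and 14 in the mutants and 1 and 0 in wildtype. The genes most like B2m were Zfp457 (0.017), Spsb3 (0.018), Fjx1 (0.019), Mrps16 (0.019) and Ebpl (0.023). With 4 libraries many genes lie close by, and the distances describe these libraries only.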

How the data were processed

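The authors deposited raw counts per gene symbol. Bowtie2, TopHat2, SAMtools, HTSeq and edgeR with the mm10 build are named, per the submitters' processing notes, with versions, annotation and strandedness not given in the sources used here. Tally rows naming no gene were left out (51.8% to 54.4% of tallied reads lay outside features, 16.1% to 17.0% were aligned to several places and 0.187% to 0.210% were ambiguous). The authors also deposited their own edgeR results, which hold p-values, fold change ratios, a likelihood ratio score, and CPM and fold changes on the log2 scale. By comparison with the counts its fold changes run wildtype over mutant, so their sign was turned.

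The test of the counts was that of edgeR 4.0.16, run in R 4.3.3 (TMM, filterByExpr, quasi-likelihood F test, Benjamini-Hochberg adjustment over 14316 genes, threshold 0.05). The SE of a log2 fold change comes from the change and its F statistic. The fits were tested on simulated counts. DESeq2 1.42.0, other scaling and filters, a replicate block and each library left out were alternatives. The series' text calls the samples paired littermates, and replicate numbers recur in both genotypes, so numbers were read as pairs; deviations of same-numbered libraries correlated at 0.144 across genes (0.0229 with a stricter filter). The fit without the block is the one reported unless stated.

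The antigen presentation genes and all lists were chosen with earlier results of these data known. All 10 were named, then list members past the threshold with or without the block, or else those of highest level until 2 were named, and 5 most similar genes each for Cd74 and B2m. GENCODE M21 gave gene positions and exon lengths, matched for 22874 of 23342 row names. RefSeq promoter windows (250 bases before and 50 after the start) were at hand for 6 genes. Shared transcript windows of 50 bases were counted on both strands.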

Additional observations from a re-analysis of the deposited data

How the results depend on the processing

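The count of genes past the threshold, 9, stayed at 9 with RLE or upper-quartile scaling and with the stricter filter (CPM over 5 in 2 libraries). It was 62 by DESeq2, 236 when no gene was filtered, 127 with the replicate block, 195 with the block and no filter (a setting chosen after seeing the data), and 3 to 443 with 1 library left out, where a lone library is assumed to vary like the other group. Of the other antigen presentation lists 1 gene passed, and 3 without a filter, 2 with the replicate block, 2 with the block and no filter, and 0 to 3 with 1 library left out. Of 93 alternative log2 fold changes of the antigen presentation genes, 91 kept their direction, 82 stayed on the same side of the threshold and 11 came past it. The reversed ones were H2-D1 at -0.21 without mutant replicate 1 (up to 1.24 with another library left out) and B2m at -0.20 without mutant replicate 2 (up to 0.41). Ctsl and Canx, near 0, also changed sign: Ctsl to -0.00025 without a filter, -0.0079 with the replicate block, -0.013 with the block and no filter, -0.22 without mutant replicate 2 (up to 0.21 with another library left out) and -0.055 without wildtype replicate 2, and Canx to 0.0071 with upper-quartile scaling, 0.010 without mutant replicate 2 and 0.016 without wildtype replicate 1 (down to -0.036 with another library left out). The log2 difference of H2-D1 between pairs was -1.18 with RLE scaling (edgeR adjusted p = 0.0013) and -1.20 without a filter (5.31e-06); both settings were chosen after seeing the data. The cause of these changes was not tested. Depth limits Cd74, H2-Aa and Ciita, where wildtype values rest on 1 to 9 reads.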

Other observations

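Beyond H2-K1 and H2-D1, the count table lists further class I heavy chain rows, 30 in all, of which 7 could be tested and 13 had 0 reads in all 4 libraries. Since reads aligned to several places were left out, 0 reads in these rows need not mean absence. H2-Q4 had 155 and 149 reads in the mutant libraries and 132 and 164 reads in the wildtype libraries. H2-T23, which encodes Qa-1, the ligand of inhibitory receptors on NK cells, had 76 and 73 reads in the mutant libraries and 37 and 47 reads in the wildtype libraries, a log2 fold change of 0.77 ± 0.35 (SE; edgeR adjusted p = 0.876). H2-T24 had 88 and 54 reads in the mutant libraries and 42 and 33 in the wildtype libraries, and H2-M3, which shows formylated bacterial peptides, 32 and 21 in the mutant libraries and 16 and 9 in the wildtype libraries; neither passed. Transcripts of H2-Q4 share 36.4% of their 50-base windows with other genes and those of H2-T23 14.5%, so these counts are uncertain. The genes were named after their values were seen.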
